A study of Homo sapiens with 34 samples.

Results

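Androgen was returned to LNCaP cells growing on a mineral surface, and the transcriptome with the hormone was compared with that without it. LNCaP is an established human prostate cancer line, 1 line that the study uses as its model of early adenocarcinoma and whose label describes it as derived from a lymph node metastasis. The surface was plastic coated with amorphous calcium phosphate (ACP), used by the study as a model of the bone microenvironment. The 4 libraries compared, of 34 in the series, are all those labelled as LNCaP on ACP in medium with charcoal-dextran-stripped serum (2 libraries) or in the same medium with androgen added (2 libraries). Charcoal stripping removes steroid hormones from serum, so these groups differ in the added hormone. The cells were harvested on day 4 after 1 change of medium on day 2. The treatment label gives testosterone at 100 mM, while the sample titles name DHT, and the agent is called androgen here. The dose is quoted as labelled and its unit is doubtful, and neither dose nor agent could be checked here. Another group of 2 libraries, LNCaP on ACP in control medium with complete serum, shows the level reached with ordinary serum on the same surface. VCaP and MDAPCa2a, established lines that the study describes as bone metastatic, were grown on ACP in the same stripped and androgen media (2 libraries each) and serve to compare the effect between lines. No library in the series is LNCaP on plastic with androgen, so the response on ACP cannot be set against one on plastic. The replicate numbers stand only in the titles, and nothing says that replicates were separate cultures, so the p-values measure the spread between these samples, which may be technical.

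Androgens act on prostate luminal cells through a nuclear receptor that, once bound by hormone, enters the nucleus and occupies DNA elements, many of them far from the genes it controls. Its textbook targets encode secreted kallikrein proteases, the membrane protease TMPRSS2, the chaperone FKBP5, which feeds back on the receptor, and enzymes of lipid synthesis. The hormone also lowers the expression of other genes, among them enzymes that conjugate steroids for removal. In LNCaP, proliferation is known to depend on the dose of androgen, rising at low doses and falling at high ones.

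Whole-library measures of the 4 libraries were alike in depth. Reads assigned to genes came to 30.1 M and 26.8 M in the stripped libraries and to 28.3 M and 29.6 M with androgen. Luminal prostate markers were all present, and the levels of the 15 listed, as CPM (reads scaled to a common library total), summed to between 9643 and 12961. The 13 basal markers summed to between 54.1 and 71.3 CPM and the 12 fibroblast markers to between 19.6 and 25.3 CPM in these libraries. Leukocyte markers summed to 14.5 and 17.3 CPM in stripped serum and 48.3 and 40.8 CPM with androgen, nearly all of it the lysosomal gene CD68, while CD3E and CD52 had no reads. RNAs without a poly(A) tail, which poly(A) selection should remove, summed to 45.6 and 11.5 CPM in stripped serum and to 162 and 75.7 CPM with androgen. The part of that difference in the results below was not tested. The 2 androgen libraries differed from each other more than the 2 stripped libraries did. Pearson's r of log2 CPM across genes, which are not independent replicates, was 0.978 for the androgen pair and 0.989 for the stripped pair.

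In total, 1133 of 14656 tested genes (7.73%) passed an adjusted p of 0.05 in edgeR's quasi-likelihood test with Benjamini-Hochberg adjustment, 552 (3.77%) of them higher with androgen and 581 (3.96%) lower. The log2 change was at least 1 in either direction for 324 of the genes that rose and 362 of those that fell, and at least 2 for 124 and 86. The 10 LNCaP libraries of the series shared 1 estimate of the spread. Without overlap between the androgen and the stripped libraries were 8170 genes (55.7%), so a separation of 2 libraries from 2 is common here and is no call by itself. Androgen replicate 1 lay further from the stripped libraries than androgen replicate 2 did. It was above replicate 2 for 407 of the 552 genes that rose (73.7%) and below it for 476 of the 581 that fell (81.9%), against 49.5% above among the genes not called. The count of calls was 366 without androgen replicate 1, 1771 without androgen replicate 2, 201 without stripped replicate 1 and 259 without stripped replicate 2. The 1133 genes kept their direction in each of these 4 fits. That was nearly fixed in advance, since in all 552 and all 581 the androgen libraries did not overlap the stripped ones.

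**Figure D1:**
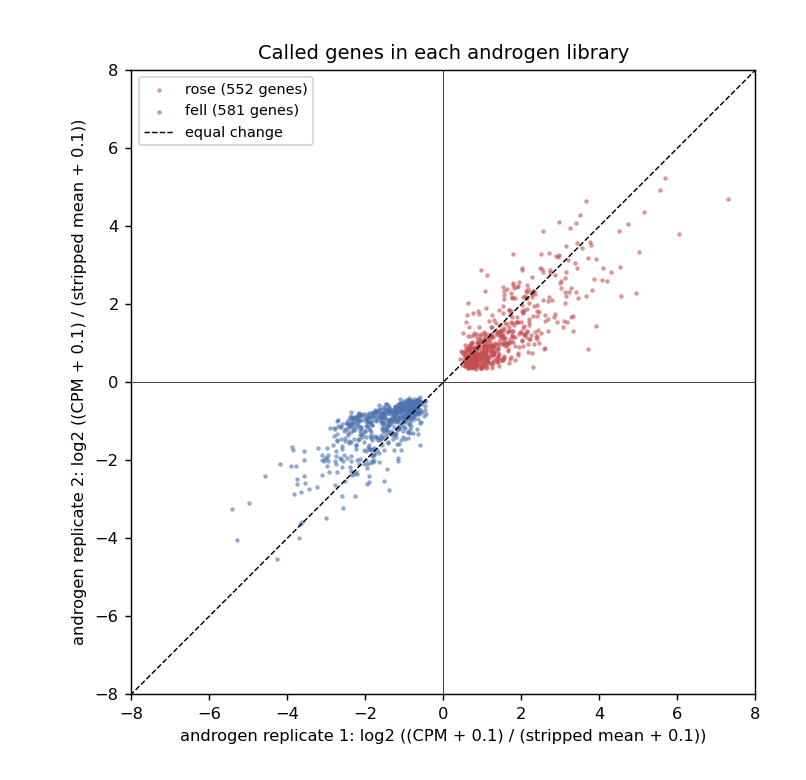
Change of each called gene in the 2 androgen libraries, as log2 of the ratio to the mean of the stripped libraries after adding 0.1 CPM to both, replicate 1 on the horizontal axis and replicate 2 on the vertical axis. Red points are the 552 genes that rose and blue points the 581 that fell; most lie on the side of the dashed line of equal change where replicate 1 changed more.

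The classical targets rose. KLK3 encodes prostate-specific antigen, a secreted kallikrein protease that liquefies semen. It stood at 1664 and 1937 CPM in stripped serum and at 3506 and 3753 CPM with androgen, a log2 change of 1.01 ± 0.17 (SE) with an adjusted p of 0.00722. KLK2, its neighbour and paralog, was at 49.9 and 48.8 CPM in stripped serum and at 218 and 122 CPM with androgen (log2 change 1.78 ± 0.23, adjusted p = 0.00143). Reads from the 2 similar transcripts may have been shared between them in counting. TMPRSS2, a serine protease of the luminal membrane, went from 209 and 202 CPM to 991 and 987 CPM, 4.82-fold. FKBP5, a chaperone of steroid receptors, went from 62.4 and 84.4 CPM to 337 and 225 CPM, 3.83-fold. In each of these 4 genes both androgen libraries lay above both stripped libraries, and the adjusted p was 4.66e-04 for TMPRSS2 and 9.28e-04 for FKBP5. KLK3 lost its call when stripped replicate 1 was left out (log2 change 0.91).

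KLK3 and KLK2 lie side by side on chromosome 19, and the 250 bases before their starts are shown because both carry the same element at nearly the same place. The sequences are RefSeq's for GRCh38.p14, plus strand, chr19:50854665-50854914 for KLK3 and chr19:50873189-50873438 for KLK2. Capitals mark the match to NGAACAGCAAGTGCT, the 15 bases that begin at the androgen half-site AGAACA of the KLK3 promoter, with the first base left free; this is the known proximal androgen response element of KLK3.
KLK3: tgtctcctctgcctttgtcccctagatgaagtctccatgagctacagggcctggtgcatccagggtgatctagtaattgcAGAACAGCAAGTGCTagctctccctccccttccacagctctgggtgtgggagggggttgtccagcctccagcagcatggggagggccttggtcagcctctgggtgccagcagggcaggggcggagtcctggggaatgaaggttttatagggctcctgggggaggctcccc
KLK2: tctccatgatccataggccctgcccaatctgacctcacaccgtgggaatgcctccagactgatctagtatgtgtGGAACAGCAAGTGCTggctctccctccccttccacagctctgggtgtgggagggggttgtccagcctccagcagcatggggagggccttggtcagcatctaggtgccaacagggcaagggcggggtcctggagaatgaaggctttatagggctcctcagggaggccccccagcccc
The match begins 170 bases before the start in KLK3 and 176 bases before it in KLK2, and differs between them in its first base. Over the 244 bases compared after shifting 1 sequence by 6 bases, 185 were identical (75.8%). Searched on both strands, the 15-letter element is in 2 of 35116 promoter windows (250 bases before to 50 after the start), which are these 2. Both matches follow from its definition, since its letters were read from KLK3 and the free base is where KLK2 differs. The count is therefore no measure of how specific the element is. The palindrome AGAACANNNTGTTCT was in 1 window of the table and in none of the tested genes. Its half-site AGAACA, of 6 letters, which the KLK3 element contains, was in 8.18% of the windows of genes that rose, 12.7% of those of genes that fell and 9.96% of those of all tested genes. Of the 552 genes that rose 422 had a window, and of the 581 that fell 453 did. TMPRSS2 and CHRNA2 were among those without.

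Of the 35 tested genes on a list of known androgen-induced genes, 28 rose and none fell, with a median log2 change of 1.88 against -0.01 over all tested genes. Among all tested genes 3.77% rose. Members of this and the other lists were chosen with earlier results of these data known, so these shares are a description. The calls also depended on the fit. With all 34 libraries fitted, the listed genes KLK3 and KLK2 were not called (log2 change 1.03 and 1.79), while FKBP5 was. SLC45A3, the luminal transporter prostein, was at 71.6 and 72.1 CPM in stripped serum and at 656 and 631 CPM with androgen, an 8.95-fold rise (adjusted p = 7.28e-06). The 2 libraries of each group nearly coincide for this gene. The androgen effect was uneven between replicates in others. ELL2, a transcription elongation factor, was at 31.3 and 36.7 CPM against 374 and 151 CPM with androgen (log2 change 2.95 ± 0.39). PMEPA1, an inhibitor of TGF-beta signalling, was at 60.0 and 70.5 CPM against 656 and 212 CPM (log2 change 2.73 ± 0.39). HERC3, of the HERC ubiquitin ligase family, was at 41.2 and 50.8 CPM against 838 and 278 CPM (log2 change 3.60 ± 0.44). For these 3 genes androgen replicate 1 held more than the other androgen library, and both stood above the stripped libraries. SORD, which converts sorbitol to fructose, was at 993 and 846 CPM against 3192 and 1877 CPM (log2 change 1.46 ± 0.21), and KLK4, another secreted kallikrein, was at 188 and 163 CPM against 523 and 387 CPM (log2 change 1.38 ± 0.19). Of the 7 members that did not pass, STEAP2 was near even (log2 change 0.06 ± 0.22), and MED28 (-0.35 ± 0.16) and CAMKK2 (-0.17 ± 0.23) had fitted changes below 0.

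**Figure D2:**
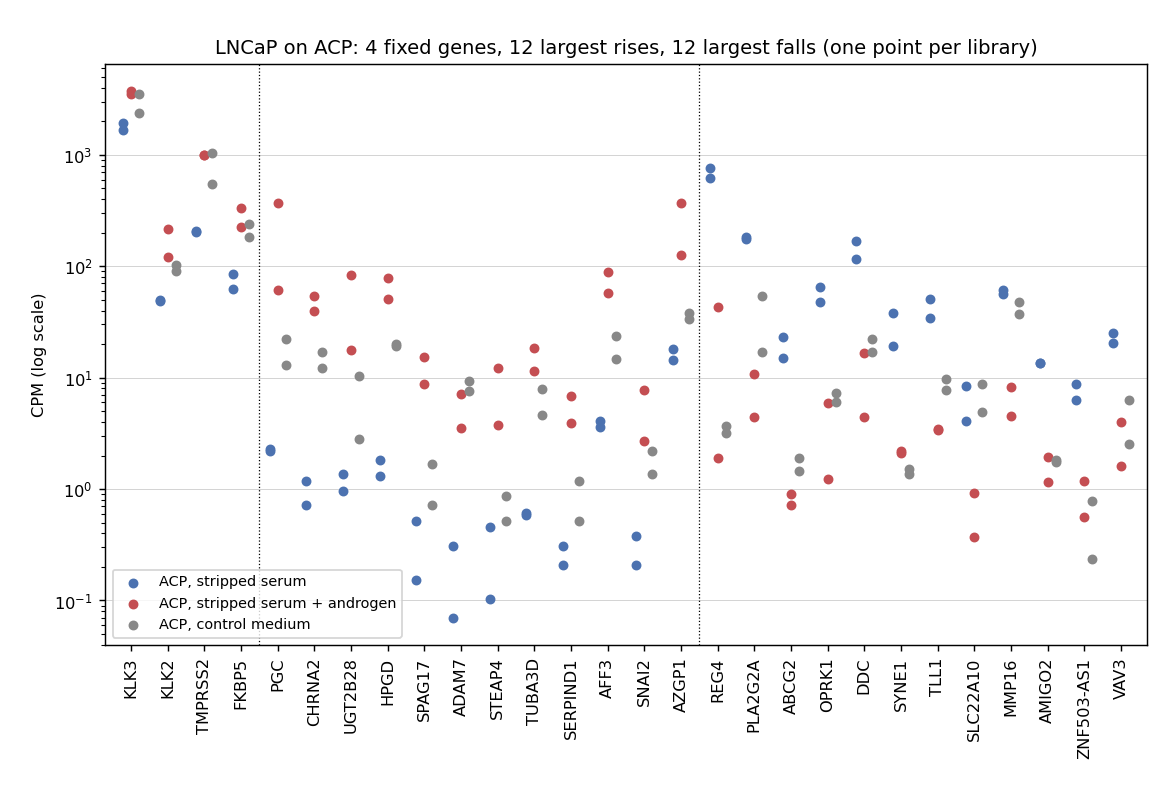
CPM on a log scale in each of the 6 LNCaP libraries on ACP, 1 point per library, for the 4 classical targets, the 12 largest rises and the 12 largest falls. With androgen (red) every gene left of the second dotted line lies above stripped serum (blue), and every gene right of it lies below. The 12 rises and 12 falls were chosen to have no overlap between these groups. Control medium (grey) often lies between.

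The 12 largest rises, taken from called genes that reached 5 CPM on average in 1 group and whose groups did not overlap, ran from 15.4-fold to 96.0-fold. PGC, the pepsinogen C precursor of a secreted aspartic protease, was at 2.21 and 2.29 CPM in stripped serum and at 371 and 61.3 CPM with androgen (log2 change 6.59 ± 0.77, adjusted p = 7.45e-04). The 2 androgen libraries differed several-fold for PGC, yet each was far above stripped serum. CHRNA2, a subunit of nicotinic acetylcholine receptors, was at 1.17 and 0.73 CPM against 54.2 and 39.7 CPM (log2 change 5.61 ± 0.31, adjusted p = 7.28e-06). HPGD, which inactivates prostaglandins, was at 1.31 and 1.83 CPM against 78.6 and 50.4 CPM (log2 change 5.36 ± 0.30, adjusted p = 7.28e-06). CHRNA2 and HPGD thus combined a large change with closely placed replicates. AFF3, a nuclear protein of the AF4 elongation factor family, was at 3.59 and 4.09 CPM against 89.7 and 57.6 CPM (log2 change 4.26 ± 0.31). AZGP1, a zinc-binding glycoprotein secreted by the prostate, was at 14.4 and 17.9 CPM against 373 and 125 CPM (log2 change 3.95 ± 0.41). For AFF3 and AZGP1 too, androgen replicate 1 was the higher of its pair. Without that library the log2 change was 4.77 for PGC and 2.95 for AZGP1, both still called, and without androgen replicate 2 it was 7.37 for PGC.

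UGT2B28, an enzyme that conjugates steroids with glucuronic acid, was at 0.97 and 1.37 CPM in stripped serum and at 83.3 and 17.7 CPM with androgen (log2 change 5.43 ± 0.77). TUBA3D, an alpha-tubulin with near-identical copies among which reads may be split, was at 0.59 and 0.61 CPM against 18.5 and 11.6 CPM (log2 change 4.64 ± 0.37). The other members of this group were close to absent without hormone, and their fitted changes rest on few reads in the stripped libraries. SPAG17, a protein of the ciliary axoneme, had 15 and 4 reads in stripped serum and 409 and 256 with androgen (log2 change 5.12 ± 0.60). ADAM7, an ADAM family protein known from the epididymis, had 2 and 8 reads against 95 and 206 (log2 change 4.84 ± 0.60), and STEAP4, a metalloreductase, 3 and 12 reads against 328 and 108 (log2 change 4.84 ± 0.69). SERPIND1, the thrombin inhibitor heparin cofactor II, had 6 and 8 reads against 105 and 200 (log2 change 4.39 ± 0.65), and without stripped replicate 1 it was no longer called (log2 change 4.14). SNAI2, the zinc-finger repressor also called Slug, had 6 and 10 reads against 206 and 78 (log2 change 4.13 ± 0.57). ADAM7 and SERPIND1 were higher in androgen replicate 2, the others here in replicate 1. Without androgen replicate 1 the log2 change was 3.92 for UGT2B28, 3.74 for STEAP4 and 3.19 for SNAI2, and without androgen replicate 2 it was 6.16 for UGT2B28 and 5.46 for STEAP4. Without stripped replicate 1 it was 6.27 for SPAG17, 4.12 for ADAM7 and 4.12 for STEAP4, and without stripped replicate 2 it was 4.53, 6.19 and 6.21. These 5 genes were still called in those fits.

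The 12 largest falls ran from 8.06-fold to 31.1-fold. REG4, a secreted C-type lectin of the gut and of neuroendocrine-type tumours, was at 765 and 623 CPM in stripped serum and at 42.9 and 1.90 CPM with androgen (log2 change -4.96 ± 0.91, adjusted p = 0.00931). Its 2 androgen libraries stood far apart: the change was -8.51 without androgen replicate 1 and -4.01 without androgen replicate 2, and without stripped replicate 1 the call was lost (-4.79). PLA2G2A, a secreted phospholipase A2, was at 181 and 177 CPM against 4.47 and 10.7 CPM (log2 change -4.56 ± 0.56). ABCG2, an efflux pump of the plasma membrane, was at 14.9 and 23.1 CPM against 0.89 and 0.72 CPM (log2 change -4.55 ± 0.41). OPRK1, the kappa opioid receptor, was at 47.5 and 65.5 CPM against 1.23 and 5.90 CPM (log2 change -3.97 ± 0.48), and DDC, which makes dopamine and serotonin from their amino acid precursors, at 116.2 and 167 CPM against 4.40 and 16.6 CPM (log2 change -3.75 ± 0.46). In all of these the androgen libraries lay below the stripped ones, as the rule for choosing them required. For PLA2G2A, OPRK1 and DDC androgen replicate 1 was the lower of the pair. Without it the log2 change was -3.26 for OPRK1 and -3.10 for DDC, and without androgen replicate 2 it was -5.51, -5.01 and, for PLA2G2A, -5.32, all still called.

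MMP16, a membrane-bound matrix metalloproteinase, was at 56.2 and 60.6 CPM in stripped serum and at 4.55 and 8.21 CPM with androgen (log2 change -3.19 ± 0.25, adjusted p = 9.18e-05). TLL1, a tolloid-like protease that processes procollagens, was at 34.04 and 51.3 CPM against 3.36 and 3.48 CPM (log2 change -3.64 ± 0.27, adjusted p = 7.18e-05). Both genes act on the extracellular matrix, and the 2 androgen libraries lay close together for TLL1. SYNE1, a spectrin-repeat protein of the nuclear envelope, was at 19.1 and 37.7 CPM against 2.13 and 2.21 CPM (log2 change -3.71 ± 0.34). AMIGO2, a cell adhesion protein, was at 13.6 and 13.4 CPM against 1.16 and 1.93 CPM (log2 change -3.12 ± 0.31). VAV3, a guanine nucleotide exchange factor, was at 20.6 and 25.1 CPM against 1.60 and 4.03 CPM (log2 change -3.01 ± 0.49). Without androgen replicate 2 it was -3.83 for VAV3. The remaining falls were SLC22A10, an organic anion transporter family member (log2 change -3.23 ± 0.47, with -4.04 without androgen replicate 2 and -2.63 without stripped replicate 2), and the antisense RNA ZNF503-AS1 (-3.11 ± 0.49), which lost its call without stripped replicate 1 (-2.85) and whose reads cannot be told from its sense partner's, since the sources used here do not give the strand setting.

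A list of 16 known androgen-repressed genes had 15 tested members, of which 8 fell and 1 rose (median log2 change -1.04). Among all tested genes 3.96% fell and 3.77% rose. Steroid conjugation was split within 1 gene family. UGT2B17, a main glucuronidating enzyme of androgens, was at 1118 and 1136 CPM in stripped serum and at 215 and 251 CPM with androgen (log2 change -2.27 ± 0.28), and UGT2B15 was at 274 and 358 CPM against 66.6 and 104 CPM (-1.89 ± 0.35). UGT2B28 rose, as given above, while UGT2B11 (2.50 ± 0.73) and UGT2B10 (1.34 ± 0.58) did not pass the test. These genes are close copies of each other, and the counting may have assigned reads among them. BCHE, butyrylcholinesterase, was at 194 and 209 CPM against 14.5 and 45.1 CPM (-2.76 ± 0.40), and CAMK2N1, an inhibitor of CaM kinase II, at 460 and 592 CPM against 35.7 and 166 CPM (-2.38 ± 0.54). FOLH1, prostate-specific membrane antigen, was at 2737 and 3110 CPM against 1746 and 1947 CPM (-0.66 ± 0.14, adjusted p = 0.0197). The count of falls in the list was 5 without androgen replicate 1, 5 without stripped replicate 1 and 4 without stripped replicate 2, and FOLH1 lost its call in each of these fits (log2 change -0.59, -0.74 and -0.57). The count of falls was also 5 when only the compared groups were fitted.

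Most tested genes of DNA replication and mitosis fell with androgen, where 3.96% of all tested genes did. Of 25 tested DNA replication genes 18 fell and none rose (median log2 change -1.10), and of 25 mitosis genes 14 fell and none rose (median -1.42). All 25 replication genes and 24 of the 25 mitosis genes had both androgen libraries below both stripped libraries. Over all tested genes 55.7% had no overlap between these groups, in either direction. MCM7, a subunit of the replicative helicase, was at 225 and 222 CPM in stripped serum and at 66.1 and 114 CPM with androgen (log2 change -1.31 ± 0.24, adjusted p = 0.00931). Thymidylate synthase, TYMS, was at 65.3 and 64.3 CPM against 12.97 and 30.9 CPM (-1.56 ± 0.32), and CDC45, which works with that helicase, at 27.9 and 26.2 CPM against 5.07 and 12.2 CPM (-1.65 ± 0.36). Replication genes were thus nearly level between the stripped replicates and uneven between the androgen replicates. MKI67, the proliferation antigen Ki-67, was at 50.1 and 56.1 CPM against 15.03 and 31.1 CPM (-1.20 ± 0.30, adjusted p = 0.0341). Cyclin B2, CCNB2, was at 42.5 and 57.4 CPM against 8.02 and 22.6 CPM (-1.70 ± 0.38), and BIRC5, survivin, at 122 and 135 CPM against 19.7 and 59.0 CPM (-1.70 ± 0.41). In bulk RNA, fewer dividing cells and less of these transcripts per cell cannot be told apart.

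The strength of these falls rested on the library. In all 25 genes of each list androgen replicate 1 was the lower of its pair. By edgeR, the number that fell was 2 replication and 1 mitosis genes without androgen replicate 1, 21 and 25 without androgen replicate 2, and none of either list without stripped replicate 1 or without stripped replicate 2. Fitted to the compared groups alone, 11 replication genes fell and no mitosis gene did, and fitted with all 34 libraries 9 and 1 fell. Without androgen replicate 1 the log2 change was -1.15 for CCNB2 and -1.12 for BIRC5, neither called, and without androgen replicate 2 it was -2.64 and -2.70. The list medians stayed below 0 in all fits run, between -1.38 and -0.78 for replication and between -2.31 and -0.86 for mitosis. Against control medium on ACP, which shares the androgen libraries with the comparison above, 25 of 25 genes in each list were called lower with androgen (medians -1.47 and -1.95), where 7.38% of all tested genes were. Over all tested genes that comparison gave 1081 lower calls, 319 without androgen replicate 1 and 43 from the compared groups only, so part of the list calls was lost in the last of these fits.

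**Figure D3:**
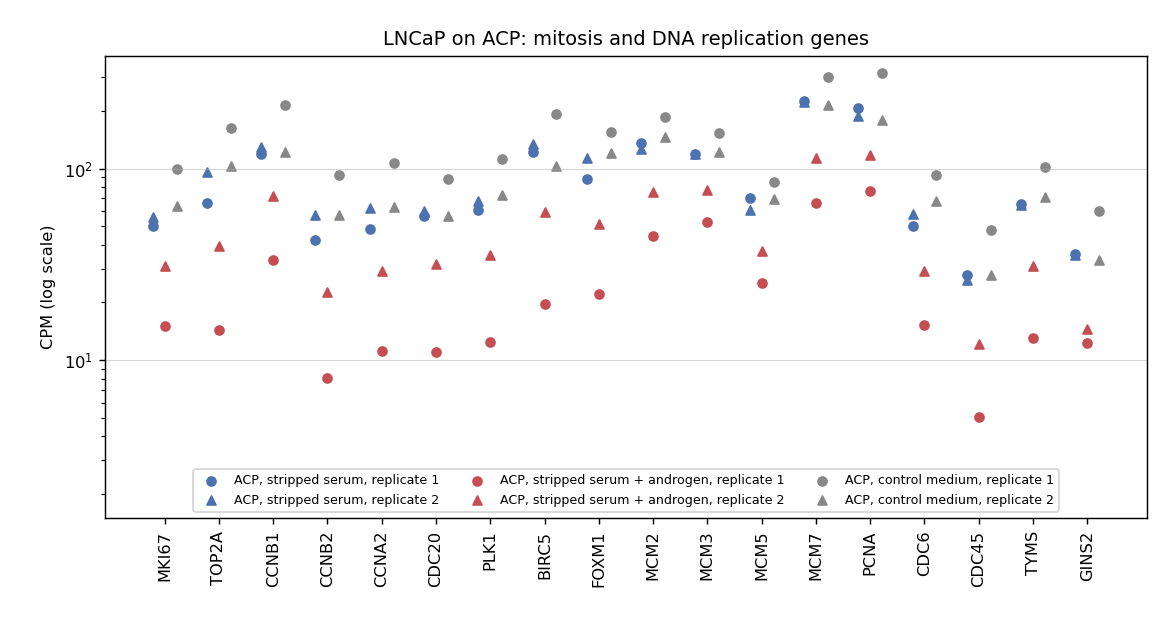
CPM on a log scale of 9 mitosis and 9 DNA replication genes in the 6 LNCaP libraries on ACP, circles for replicate 1 and triangles for replicate 2. The androgen libraries (red) are lowest for every gene shown, replicate 1 below replicate 2, for MKI67 at 15.03 and 31.1 CPM against 50.1 and 56.1 CPM in stripped serum (blue).

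Promoters of both lists are shown because each list held 1 known cell-cycle motif in a larger share of its genes than all tested genes did. Capitals mark an E2F site (TTTGGCGC or TTTCCCGC on either strand) for MCM3 and MCM7 and the cell-cycle gene homology region, CHR (TTTGAA on either strand), for the mitotic genes. Each is the 250 bases before the start from RefSeq, GRCh38.p14, at chr6:52284743-52284992 (minus strand) for MCM3, chr7:100101398-100101647 (minus) for MCM7, chr15:59104896-59105145 (plus) for CCNB2 and chr1:43358731-43358980 (plus) for CDC20, an activator of the anaphase-promoting complex.
MCM3: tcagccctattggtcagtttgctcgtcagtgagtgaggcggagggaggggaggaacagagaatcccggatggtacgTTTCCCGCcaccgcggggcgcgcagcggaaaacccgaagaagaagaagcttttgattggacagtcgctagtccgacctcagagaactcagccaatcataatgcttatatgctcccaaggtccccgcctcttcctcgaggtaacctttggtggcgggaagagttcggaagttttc
MCM7: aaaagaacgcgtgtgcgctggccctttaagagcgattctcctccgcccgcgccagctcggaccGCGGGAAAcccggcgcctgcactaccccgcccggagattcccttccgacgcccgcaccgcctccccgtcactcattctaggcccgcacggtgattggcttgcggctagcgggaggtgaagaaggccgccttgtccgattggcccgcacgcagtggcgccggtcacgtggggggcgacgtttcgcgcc
CCNB2: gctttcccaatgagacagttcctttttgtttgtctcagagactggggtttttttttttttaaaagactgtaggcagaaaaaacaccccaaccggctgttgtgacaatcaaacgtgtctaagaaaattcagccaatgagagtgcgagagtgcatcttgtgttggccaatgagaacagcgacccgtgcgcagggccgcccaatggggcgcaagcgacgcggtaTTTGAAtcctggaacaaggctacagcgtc
CDC20: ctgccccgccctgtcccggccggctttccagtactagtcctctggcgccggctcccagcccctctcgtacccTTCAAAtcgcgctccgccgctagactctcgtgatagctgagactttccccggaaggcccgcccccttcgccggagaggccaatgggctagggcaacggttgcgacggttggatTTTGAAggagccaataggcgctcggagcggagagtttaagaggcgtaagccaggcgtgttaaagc
The E2F site was in the window of 11 of 21 matched replication genes (52.4%) and of 4.49% of matched tested genes. The CHR was in 12 of 19 matched mitosis genes (63.2%) and 13.4% of matched tested genes. The other way round, the CHR was in 1 of the 21 replication genes (4.76%) and the E2F site in 1 of the 19 mitosis genes (5.26%). Among all genes that fell with androgen 8.61% held the E2F site and 19.4% the CHR, and among those that rose 2.61% and 14.9% did. CDC20 holds the CHR 178 and 65 bases before its start, and CCNB2 29 bases before. MCM3, at 119 and 120 CPM in stripped serum and 52.3 and 77.1 CPM with androgen, fell (log2 change -0.88 ± 0.20), as did CDC20, at 56.8 and 60.0 CPM against 10.999 and 31.6 CPM (-1.45 ± 0.37). A match is a description of the letters and not evidence of a bound factor.

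Some lipid synthesis genes rose, where 3.77% of all tested genes did. Of 25 tested genes of cholesterol synthesis and uptake 14 rose and none fell (median log2 change 0.66), and of 20 fatty acid synthesis genes 10 rose and none fell (median 0.54). HMGCS1, at the entry of the mevalonate pathway, was at 117 and 124 CPM in stripped serum and at 385 and 242 CPM with androgen (log2 change 1.38 ± 0.23), and LSS, which closes the sterol ring, at 138 and 127 CPM against 278 and 287 CPM (1.09 ± 0.14). The regulator SREBF2 was at 286 and 252 CPM against 471 and 454 CPM (0.78 ± 0.15). For LSS and SREBF2 the libraries of each group lay close together, and no group overlapped the other. ELOVL5, which elongates polyunsaturated fatty acids, was at 387 and 507 CPM against 4793 and 3431 CPM, a 9.19-fold rise (adjusted p = 3.22e-05). ELOVL7, which elongates saturated ones, was at 3.83 and 6.72 CPM against 29.8 and 41.1 CPM (2.75 ± 0.32), and fatty acid synthase, FASN, at 1345 and 955 CPM against 2683 and 2192 CPM (1.08 ± 0.21). SREBF1 had a log2 change of 0.05 ± 0.15 and did not pass. The counts that rose were 6 cholesterol and 4 fatty acid genes without androgen replicate 1, 4 and 4 without stripped replicate 1, and 3 and 3 without stripped replicate 2, and 5 fatty acid genes in the compared groups only. HMGCS1 lost its call without either stripped library (1.35 and 1.42). ELOVL5 and ELOVL7 were called in every fit run.

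A minority of the secretory pathway genes was called higher, where 3.77% of all tested genes were. Of 33 tested genes of endoplasmic reticulum folding and secretion 4 rose and none fell: EDEM3 (log2 change 1.30 ± 0.20), ERO1A (1.45 ± 0.27), PDIA5 (0.69 ± 0.15) and EDEM1 (0.66 ± 0.16). EDEM1 and EDEM3 trim glycans of misfolded proteins, and ERO1A oxidises the disulfide isomerases. The main chaperone HSPA5 was at 752 and 1100 CPM in stripped serum and 757 and 853 CPM with androgen, with overlapping groups. Without stripped replicate 1 none of the 4 was called (EDEM3 1.11, ERO1A 1.23), and the list had 2 called without androgen replicate 1, 7 without androgen replicate 2 and 2 without stripped replicate 2. Of 24 glycosylation genes 4 rose: ST6GALNAC1, UAP1, PGM3 and B4GALT1. ST6GALNAC1, which makes the sialyl-Tn antigen, was at 9.62 and 11.04 CPM against 83.9 and 55.8 CPM, a 6.76-fold rise (adjusted p = 9.18e-05) called in every fit. UAP1 and PGM3 make UDP-N-acetylglucosamine, and UAP1 was at 172 and 154 CPM against 497 and 318 CPM (1.32 ± 0.23). Leaving out either stripped library left 1 gene of that list called, and UAP1 was then not among them (1.42 and 1.25).

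**Figure D4:**
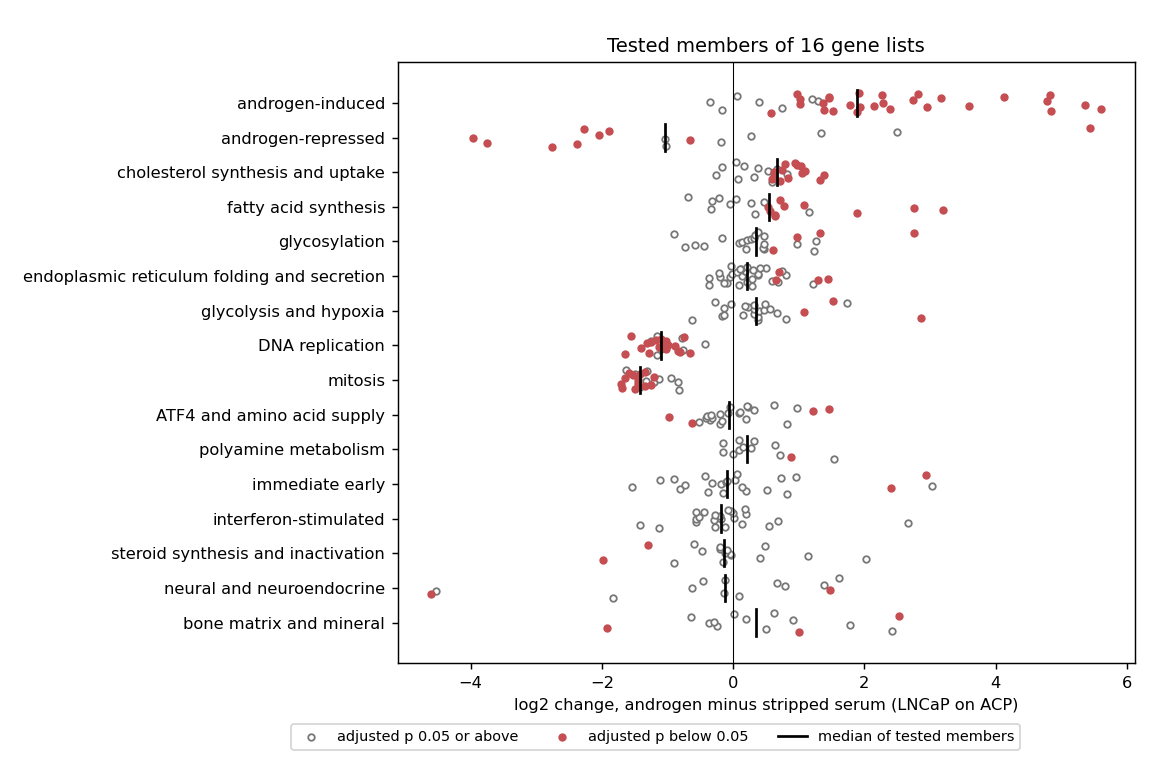
Fitted log2 change with androgen of each tested member of 16 gene lists, filled red where the adjusted p was below 0.05 and open otherwise, with black bars at the list medians. The medians of the androgen-induced list (28 of 35 rose) and of the lipid lists lie right of 0, those of the replication and mitosis lists lie left of it, and the interferon-stimulated list has no called member.

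Control medium on ACP gives the level with complete serum on the same surface. It shares the androgen libraries with the comparison above. Between androgen and control medium 2218 of 14656 genes (15.1%) were called, 1137 higher with androgen (7.76%) and 1081 lower (7.38%). KLK3 was at 2369 and 3496 CPM in control medium, TMPRSS2 at 546 and 1039 CPM and FKBP5 at 240 and 183 CPM. None of the 3 was called against androgen (log2 androgen minus control 0.31, 0.32 and 0.41), with SEs of 0.17, 0.23 and 0.23. For KLK3 and TMPRSS2, though not for FKBP5, that rested on control replicate 2, without which KLK3 (0.61) and TMPRSS2 (0.86) were called higher with androgen. KLK2, at 91.1 and 103 CPM in control medium, was called higher (0.81 ± 0.23, adjusted p = 0.036), but not without androgen replicate 1 (0.33), control replicate 1 (0.73) or control replicate 2 (0.90), nor in the fits of all 34 libraries (0.84), without the plastic control libraries (0.81) or of the compared groups only (0.81). The 12 largest rises and falls were chosen on these same androgen libraries, so their differences from control medium are a description. AZGP1 was at 33.6 and 38.3 CPM in control medium against 373 and 125 CPM with androgen (2.79 ± 0.39), and PGC at 13.1 and 22.4 CPM against 371 and 61.3 CPM (3.61 ± 0.64). ADAM7, by contrast, was at 9.38 and 7.64 CPM in control medium (-0.67 ± 0.42). Among the 12 largest falls, MMP16 remained high in control medium, at 47.4 and 37.0 CPM, above both androgen libraries (-2.72 ± 0.25), and SLC22A10 was at 4.94 and 8.70 CPM there (-3.37 ± 0.47). REG4 was at 3.20 and 3.70 CPM in control medium, near its lower androgen library, and ABCG2 at 1.90 and 1.46 CPM. The count of 2218 fell to 701 without androgen replicate 1 and to 1079 without control replicate 1, and to 160 when only these 2 groups were fitted.

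The response of LNCaP was set against that of the bone metastatic lines by testing the difference between the effects, in a fit of all 34 libraries and 17323 genes (CPM in this fit differ slightly from those above). Between VCaP and LNCaP 1887 genes (10.9%) differed, 933 with a higher effect in VCaP (5.39%) and 954 with a lower one (5.51%). Apart from KLK3 and TMPRSS2, the genes given here were chosen from those called in LNCaP, whose libraries enter the difference. Their differences are therefore a description, and not a ranking over all genes. ABCG2 moved in opposite directions. It was at 14.0 and 21.2 CPM in stripped serum and at 0.83 and 0.69 CPM with androgen in LNCaP, and at 0.88 and 0.57 CPM against 15.9 and 27.4 CPM in VCaP (difference of log2 effects 9.43 ± 0.75, adjusted p = 5.83e-08). IGFBP3, a carrier of insulin-like growth factors, was at 4.66 and 6.16 CPM against 46.1 and 14.9 CPM in LNCaP, and at 1869 and 195 CPM against 9.22 and 13.1 CPM in VCaP (difference -9.03 ± 1.17). HPGD had androgen and stripped levels close together in VCaP, at 384 and 403 CPM against 556 and 412 CPM (difference -5.67 ± 0.74). KLK3, on the other hand, was at 36.1 and 120 CPM in stripped VCaP and at 3446 and 840 CPM with androgen (difference 3.75 ± 0.74, adjusted p = 0.00235). With 1 of the 8 libraries left out the difference ran from 2.40 to 4.87 for KLK3 and from -9.88 to -6.63 for IGFBP3, called throughout. TMPRSS2 had a difference of 0.63 ± 0.61 and PGC of -0.29 ± 1.31, neither called, with errors that leave sizeable differences in either direction possible.

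Cell-cycle genes differed between LNCaP and VCaP. Of the 25 mitosis genes 22 had a higher effect in VCaP and none a lower one (median difference 3.02 against -0.05 over all genes), and of the 25 replication genes 23 did (median 2.07). BIRC5 was at 39.4 and 99.1 CPM in stripped VCaP and at 240 and 361 CPM with androgen (difference 3.80 ± 0.77), and CDC20 at 23.9 and 43.5 CPM against 120 and 234 CPM (difference 3.82 ± 0.74). The androgen libraries of VCaP lay above its stripped libraries, the reverse of LNCaP. Of the 35 androgen-induced genes 2 had a higher effect in VCaP and 8 a lower one. Over all genes 5.39% had a higher effect in VCaP and 5.51% a lower one. The count of 1887 fell to 1013 without VCaP androgen replicate 2, 1055 without VCaP stripped replicate 1, 1158 without LNCaP androgen replicate 1, 1066 without LNCaP stripped replicate 1 and 1139 without LNCaP stripped replicate 2.

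Between MDAPCa2a and LNCaP 194 of 17323 genes (1.12%) differed, 61 with a higher effect in MDAPCa2a (0.352%) and 133 with a lower one (0.768%). Within MDAPCa2a itself 0 genes were called higher with androgen and 1 lower in the same fit, against 2184 and 2361 within VCaP. The count of 194 therefore sets LNCaP against a line with almost no called response, and is no measure of likeness to LNCaP. MDAPCa2a held several of the genes that rose in LNCaP at a high level without hormone. Among them are AFF3, HPGD and PGC, in which its stripped and androgen libraries overlapped. AFF3 was at 191 and 133 CPM in stripped MDAPCa2a and at 159 and 145 CPM with androgen (difference -4.36 ± 0.47, MDAPCa2a minus LNCaP). HPGD was at 293 and 71.6 CPM against 110 and 61.9 CPM there (difference -6.46 ± 0.75), and PGC at 387 and 66.4 CPM against 103 and 65.8 CPM (difference -8.01 ± 1.07). With 1 library left out these ran from -7.15 to -5.11 for HPGD and from -8.79 to -6.22 for PGC, called throughout. Among the androgen-induced genes 16 of 35 had a lower effect in MDAPCa2a and none a higher one. TLL1 was at 8.46 and 35.6 CPM in stripped MDAPCa2a and at 29.9 and 45.1 CPM with androgen, overlapping groups (difference 4.39 ± 0.66, and from 3.70 to 5.77 with 1 library left out). The 2 stripped libraries of MDAPCa2a differed widely in several of these genes, and the count of 194 ranged from 77 to 598 when any 1 of the 8 libraries was left out, highest without MDAPCa2a stripped replicate 2.

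**Figure D5:**
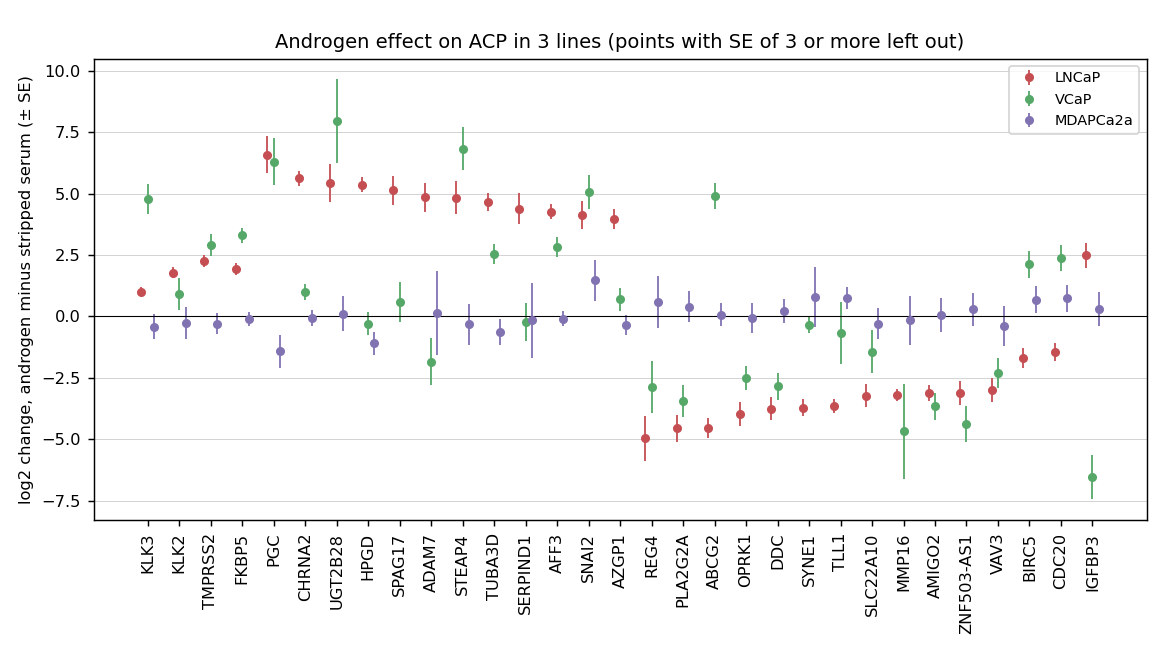
Fitted log2 effect of androgen on ACP, ± SE, for the named genes in LNCaP (red), VCaP (green) and MDAPCa2a (purple); fits with an SE of 3 or more are left out. ABCG2, IGFBP3, BIRC5 and CDC20 lie on opposite sides of 0 in LNCaP and VCaP, and the MDAPCa2a points lie mostly near 0.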

How the data were processed

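The deposited table holds counts of reads per gene for 34 libraries, made by the authors. STAR, HTSeq and build hg19 are named in the submitters' processing notes, poly(A) selection in the labels' protocols. Their versions, the annotation and the strand setting: not given in the sources used here. From the deposited counts, edgeR 4.0.16 (R 4.3.3) fitted the 10 LNCaP libraries (filterByExpr minimum count 10, TMM scaling, quasi-likelihood test, 5 residual degrees of freedom, Benjamini-Hochberg threshold 0.05). All 34 libraries entered the differences between lines. The standard error is the log2 change over the root of F. CPM are TMM-scaled. Named genes were KLK3, KLK2, TMPRSS2 and FKBP5, and the 12 largest rises and 12 largest falls with at least 5 CPM and no overlap. Up to 2 rises and 2 falls of each of 22 lists were also named. The 3 largest differences between lines in each direction were taken only among genes called in LNCaP, androgen against stripped serum, with at least 5 CPM. Other genes named were taken from the lists after their values were seen. Members and lists were chosen with earlier results of these data known. On simulated counts with 200 changed genes among 14491, the LNCaP comparison recovered 98.0% of changes of log2 2, and among 14471 genes 71.5% of changes of log2 1. False calls numbered 10 and 5. The simulated spread followed the fitted trend, without a deviant library, and only genes with enough expected reads were changed. Recovery in the real libraries may therefore be lower. Promoters were matched by symbol to RefSeq GRCh38.p14 (10790 of 14656 tested genes), since no hg19 sequence was used here. Totals per library ran from 15.4 M to 44.8 M reads. Alternatives covered scaling, filtering, DESeq2 1.42.0, the libraries fitted and each library left out.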

Additional observations from a re-analysis of the deposited data

Results flagged for a closer look

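The androgen effect differed between lines for 1887 genes (VCaP minus LNCaP) and 194 genes (MDAPCa2a minus LNCaP), by a test of the difference itself in edgeR. Apart from KLK3, FKBP5 and TMPRSS2, the genes named in this section were chosen from those called in LNCaP. The same LNCaP libraries enter the differences, which are therefore a description. The signed difference of log2 effects, VCaP minus LNCaP, was above 0 for KLK3 (3.75), FKBP5 (1.36), ABCG2 (9.43), SYNE1 (3.33), BIRC5 (3.80) and CDC20 (3.82). FKBP5 was not called without VCaP androgen replicate 1 (1.12), VCaP stripped replicate 1 (0.95), LNCaP androgen replicate 2 (1.11) or LNCaP stripped replicate 2 (1.15). SYNE1 was at 20.9 and 18.2 CPM in stripped VCaP and at 18.7 and 11.9 CPM with androgen, so its fall in LNCaP had no called counterpart there. The difference was below 0 for CHRNA2 (-4.63), HPGD (-5.67), SPAG17 (-4.54), ADAM7 (-6.69), TUBA3D (-2.11), SERPIND1 (-4.64), AZGP1 (-3.27) and IGFBP3 (-9.03). TUBA3D was not called without VCaP androgen replicate 2 (-2.05), VCaP stripped replicate 2 (-1.18), LNCaP androgen replicate 1 (-1.75), LNCaP stripped replicate 1 (-2.10) or LNCaP stripped replicate 2 (-2.13), nor SERPIND1 without VCaP stripped replicate 1 (-3.65). CHRNA2, near absent in stripped LNCaP, stood at 56.1 and 46.4 CPM in stripped VCaP.

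Against MDAPCa2a, the effect in LNCaP was the larger rise for TMPRSS2 (MDAPCa2a minus LNCaP -2.59), FKBP5 (-2.05), PGC (-8.01), CHRNA2 (-5.69), UGT2B28 (-5.32), HPGD (-6.46), TUBA3D (-5.29), AFF3 (-4.36) and AZGP1 (-4.30). It was the larger fall for PLA2G2A (4.93), ABCG2 (4.60), OPRK1 (3.90), DDC (3.95) and TLL1 (4.39). TMPRSS2 was called only without LNCaP androgen replicate 2 or MDAPCa2a stripped replicate 2 among the 8 fits with 1 library left out (-2.84 to -2.27 over all 8). FKBP5 was not called without LNCaP androgen replicate 1 (-1.74), LNCaP stripped replicate 1 (-1.86) or MDAPCa2a androgen replicate 2 (-1.89), and UGT2B28 not without LNCaP stripped replicate 1 (-5.10), MDAPCa2a androgen replicate 2 (-4.90) or MDAPCa2a stripped replicate 1 (-4.25). OPRK1 and DDC were not called without MDAPCa2a androgen replicate 2 (3.59 and 3.32) or MDAPCa2a stripped replicate 1 (3.31 and 3.497). PLA2G2A was at 11.4 and 21.1 CPM in stripped MDAPCa2a and at 18.2 and 24.7 CPM with androgen. TMPRSS2 there was at 1302 and 875 CPM in stripped serum and at 909 and 854 CPM with androgen.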

How the results depend on the processing

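The 1133 calls of androgen against stripped serum became 2028 without the low-count filter, 1733 with DESeq2, 739 in a fit of all 34 libraries, 696 in a fit without the plastic control libraries, 619 in a fit of the compared groups only and 686 with a log2 change of at least 1 required. Leaving out 1 library gave between 201 and 1771 calls. Androgen against control medium gave 160 calls from the compared groups only and between 701 and 2555 with 1 library left out. The difference between VCaP and LNCaP gave between 1013 and 2023 calls with 1 library left out. That between MDAPCa2a and LNCaP gave 493 without the filter, 472 with DESeq2 and between 77 and 598 with 1 library left out. In a fit with the replicate number as a block, 1231 genes were called; with only 2 pairs whose deviations correlated at 0.156, same-numbered libraries share a number and nothing else that the labels give, and that fit is listed only as an alternative. Of the 1133 genes, 1117 were also called under RLE size factors, 1111 by DESeq2, 583 in the compared groups only and 198 without stripped replicate 1. None changed direction in these fits, which is little evidence, since the androgen and stripped libraries did not overlap in any of the 1133. KLK3 and KLK2 were not called in the fit of all 34 libraries (log2 change 1.03 and 1.79), and REG4 was not called in the compared groups only (-4.96). Leaving out genes below 0.5% of their level in another line, an alternative chosen after seeing the data, removed 1 call. The cause of these changes was not tested. Genes with few reads in stripped serum have imprecise fold changes.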

Other observations

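Few growth-signalling and stress genes were called; over all tested genes 3.77% were called higher and 3.96% lower, and nothing particular to these lists is read from their counts. Of 23 tested immediate early genes 2 rose, EGR3 and the MAP kinase feedback inhibitor SPRY4. SPRY4 was at 3.14 and 1.41 CPM in stripped serum and at 31.1 and 4.17 CPM with androgen (log2 change 2.94 ± 0.72). It was not called without androgen replicate 1 (0.87), stripped replicate 1 (3.64) or stripped replicate 2 (2.49), and EGR3 lost its call without the same 3 libraries (2.07, 3.05 and 1.98). Of 24 glycolysis and hypoxia genes 3 rose: HK2, the first enzyme of glycolysis (1.08 ± 0.16), the angiogenic factor VEGFA (1.52 ± 0.30) and ANKRD37 (2.86 ± 0.48). Without stripped replicate 1 neither VEGFA (1.59) nor ANKRD37 (2.48) was called, and VEGFA was not called without androgen replicate 1 (1.33) or stripped replicate 2 (1.45). By edgeR none of 23 interferon-stimulated genes was called, although 2 were higher and 1 lower at an unadjusted p under 0.05, and DESeq2 called none. Of 24 genes of ATF4 and amino acid supply 2 rose and 2 fell, ATF4 itself falling from 386 and 352 CPM to 229 and 248 CPM (-0.63 ± 0.13), and PHGDH, which starts serine synthesis, from 365 and 327 CPM to 143 and 207 CPM (-0.98 ± 0.17). PHGDH was not called without stripped replicate 1 (-0.90), and ATF4 not without androgen replicate 1 (-0.58), stripped replicate 1 (-0.55) or stripped replicate 2 (-0.70). In control medium PHGDH was at 486 and 506 CPM and ATF4 at 607 and 632 CPM.

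Small groups of genes carried isolated changes. GRIK1, a kainate receptor subunit, was at 2.14 and 4.16 CPM in stripped serum and had 4 and 3 reads with androgen (-4.60 ± 0.52). It was 1 of 2 called among 13 tested neural genes, where 7.73% of all tested genes were called in either direction. The other, PCLO, rose from 3.24 and 3.36 CPM to 12.7 and 5.59 CPM (1.47 ± 0.34), with a log2 change of 0.76 without androgen replicate 1. AKR1C3, which makes testosterone from androstenedione, was at 7.62 and 7.83 CPM against 2.13 and 1.79 CPM (-1.98 ± 0.33), and SULT2B1, a steroid sulfotransferase, at 12.9 and 9.55 CPM against 4.06 and 5.10 CPM (-1.29 ± 0.25). SULT2B1 was not called without androgen replicate 1 (-1.14) or stripped replicate 1 (-1.05). Among 14 tested bone matrix and mineral genes ANKH, which exports the mineralisation inhibitor pyrophosphate, was at 268 and 247 CPM against 668 and 367 CPM (1.01 ± 0.24). It was not called without androgen replicate 1 (0.51), nor without either stripped library (1.07 and 0.95). SPARC rose from 4 and 5 reads to 18 and 36, and BMP6 fell from 43 and 43 reads to 6 and 17; SPARC was called in no fit with 1 of these 4 libraries left out (2.01 to 2.89), and BMP6 only without androgen replicate 2 (-2.78 to -1.41). The luminal keratin KRT19 rose from 4.93 and 3.74 CPM to 14.4 and 14.7 CPM (1.74 ± 0.26), while FOXA1, a luminal pioneer factor, had a log2 change of 0.06 ± 0.13 and did not pass.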
